A study of Mus musculus with 8 samples.

Results

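The neutrophil granule and alarmin genes described here are 10 genes that neutrophils and their precursors load into granules or hold in the cytosol: Mpo, Elane, Ltf, Ngp, Camp, Lcn2, Mmp8, Mmp9, S100a8 and S100a9. Every probe with one of these symbols in the platform annotation was taken, which gave 13 of the 25697 probes on the array for 10 of 16593 named genes. The samples were spleens of recipient mice of the strain B6D2F1J, a cross of C57BL/6 with DBA/2, at an age of 10 weeks. They were collected 14 days post-engraftment in a parent-into-F1 study of the lupus immune response. In 4 samples the donor was DBA and in the other 4 it was B10.D2, and the comparison asks how spleen RNA differs with the donor strain. Every sample is from an engrafted recipient, no ungrafted F1 spleen was used here, and the labels give neither the kind nor the number of cells transferred. B10.D2 is not a parental strain of these recipients. Nothing in the labels ties replicates to different animals, so the p-values describe only the spread among these arrays, which can be technical.

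Neutrophils make their granules in a fixed order as they mature in bone marrow and, in mice, also in the spleen. Azurophil granules form first, at the promyelocyte stage, and carry myeloperoxidase and serine proteases. Specific granules follow at the myelocyte stage with iron-binding and antimicrobial proteins, and gelatinase granules come last. The transcripts for each class are made mostly while that class is being filled, so Mpo and Elane mark early precursors while Ltf, Ngp, Camp and Lcn2 mark later ones. S100a8 and S100a9 form calprotectin, a calcium- and zinc-binding complex that fills the cytosol of mature neutrophils and acts as an alarmin when it is released.

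The sequences just upstream of these genes are shown for early, late and alarmin members, to set what they hold there beside their shared array pattern. RefSeq promoter windows of GRCm38.p6, from 250 bases before to 50 bases after the gene's start, were matched by symbol for 9 of the 10 genes (Mmp9 was not matched). Both strands were searched for the letters TTGCNNAA, a form of the site of the C/EBP factors that drive granulocyte maturation, and GAGGAA, the core of the PU.1 site used across myeloid cells. TTGCNNAA was found in 0 of 2 early members, 4 of 5 late members (Ltf, Ngp, Lcn2 and Mmp8, but not Camp) and 1 of 2 alarmins (S100a9), against 10.8% of all 32851 promoter windows. GAGGAA was found in 2 of 2 early members, 3 of 5 late members and 1 of 2 alarmins (S100a8), against 28.3% of all windows. In 5 members below, bases are in lower case and capitals mark matches of TTGCNNAA or GAGGAA, on either strand. Matches of TTGCNNAA overlapped matches of GAGGAA in 0 cases. These matches are descriptions of letters and do not show binding.
Mpo (early, GRCm38.p6, chr11:87793534-87793833, plus strand): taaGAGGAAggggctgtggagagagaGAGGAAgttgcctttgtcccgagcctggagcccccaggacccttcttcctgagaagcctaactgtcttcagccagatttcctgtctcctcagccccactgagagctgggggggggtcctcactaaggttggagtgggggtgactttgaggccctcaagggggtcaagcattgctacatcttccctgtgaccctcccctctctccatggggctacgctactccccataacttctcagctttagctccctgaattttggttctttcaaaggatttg
Elane (early, GRCm38.p6, chr10:79886062-79886361, plus strand): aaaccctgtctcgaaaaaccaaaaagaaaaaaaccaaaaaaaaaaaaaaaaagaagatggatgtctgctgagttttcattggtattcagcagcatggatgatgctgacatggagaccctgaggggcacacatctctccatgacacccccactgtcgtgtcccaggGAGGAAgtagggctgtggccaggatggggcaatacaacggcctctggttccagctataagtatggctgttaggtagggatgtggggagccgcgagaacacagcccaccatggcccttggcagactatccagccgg
Ngp (late, GRCm38.p6, chr9:110419558-110419857, plus strand): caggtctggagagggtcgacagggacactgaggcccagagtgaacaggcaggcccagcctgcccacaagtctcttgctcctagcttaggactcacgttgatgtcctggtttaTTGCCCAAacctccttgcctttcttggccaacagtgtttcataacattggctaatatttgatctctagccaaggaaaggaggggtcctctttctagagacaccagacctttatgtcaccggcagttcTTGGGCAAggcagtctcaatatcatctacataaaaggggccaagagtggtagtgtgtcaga
Ltf (late, GRCm38.p6, chr9:111019042-111019341, plus strand): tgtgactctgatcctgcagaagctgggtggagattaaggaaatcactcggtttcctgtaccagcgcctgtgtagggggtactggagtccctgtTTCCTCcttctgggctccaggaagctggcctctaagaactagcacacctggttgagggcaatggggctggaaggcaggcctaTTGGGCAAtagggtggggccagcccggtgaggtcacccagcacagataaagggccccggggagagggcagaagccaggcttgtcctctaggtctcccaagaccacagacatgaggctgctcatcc
S100a8 (alarmin, GRCm38.p6, chr3:90668821-90669120, plus strand): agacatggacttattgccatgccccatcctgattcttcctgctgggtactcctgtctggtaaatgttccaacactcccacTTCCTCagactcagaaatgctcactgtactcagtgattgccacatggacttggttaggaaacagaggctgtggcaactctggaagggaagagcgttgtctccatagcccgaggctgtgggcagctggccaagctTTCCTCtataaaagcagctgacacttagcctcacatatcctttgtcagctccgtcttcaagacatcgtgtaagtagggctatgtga

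Genes of the set also lie near each other. S100a8 and S100a9 are adjacent on chromosome 3, with 0 protein-coding genes between them. On chromosome 9, 8 protein-coding genes lie between Camp and Ngp and 20 between Ngp and Ltf. Elane stands next to Prtn3 on chromosome 10.

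Values below are normalized log2 intensities, where a difference of 1 is a doubling, and differences are given as DBA donor minus B10.D2 donor. Testing covered the 12950 probes that were detected on 4 or more of the 8 arrays, detection meaning a deposited detection p below 0.05. Of the 13 member probes 12 were tested, for 9 of the 10 genes; the Mmp8 probe was not. With limma and Benjamini-Hochberg adjustment over all tested probes, 0 of the 12 member probes passed at an adjusted p under 0.05, where 0.0695% of all tested probes passed. At an unadjusted p under 0.05 there was 1 member probe (Mmp9, lower in DBA donor spleens), where 14.5% of all tested probes stood in either direction and 7.39% on the lower side. By gene, 4 members had positive and 5 negative differences, where 51% of tested probes were negative. These signs depend on the scaling: with arrays scaled to one median the 9 were all negative, as was the median of all tested probes, at -0.16. The donor groups overlapped for all 12, where 8.37% of tested probes did not overlap.

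The alarmin genes were detected on all 8 arrays and overlapped between the donors. S100a8 stood at 13.05, 12.91, 13.34 and 13.57 in DBA donor spleens (replicates 1 to 4), against 13.36, 13.40, 13.20 and 13.17 in B10.D2 donor spleens. DBA donor replicate 4 was above every B10.D2 donor array and DBA donor replicates 1 and 2 were below every one of them. The difference was -0.06 (SE 0.14, 95% confidence interval -0.37 to 0.25, limma adjusted p = 0.878). On the deposited linear scale S100a8 ran from 7225 to 11579.8 in DBA donor spleens, against 9707.9 to 12325.1 in B10.D2 donor spleens, before normalization.

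S100a9, the partner subunit, was at 11.30, 10.94, 11.78 and 11.94 in DBA donor spleens, against 11.92, 11.66, 11.23 and 11.45 in B10.D2 donor spleens. The groups overlapped over nearly their whole range, and the difference was -0.08 (SE 0.22, 95% confidence interval -0.56 to 0.40, limma adjusted p = 0.907). Its highest array was 1.99-fold above its lowest among DBA donor spleens and 1.62-fold among B10.D2 donor spleens.

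The specific granule genes varied more between arrays of one donor than between donors. Camp, the cathelicidin precursor, had the widest spread of the set. It stood at 10.00, 9.64, 10.73 and 11.03 in DBA donor spleens, against 10.69, 10.57, 10.07 and 9.67 in B10.D2 donor spleens. The lowest and the highest value of all 8 arrays were both from DBA donor spleens, 2.63-fold apart, and the range among B10.D2 donor spleens was 2.02-fold. The difference between donors was 0.10 (SE 0.31, limma adjusted p = 0.919), and its 95% confidence interval, -0.59 to 0.79, allows a ratio of DBA over B10.D2 donor from 0.665 to 1.73.

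Ngp, the neutrophilic granule protein, was at 9.34, 9.20, 10.10 and 10.40 in DBA donor spleens, against 10.09, 9.91, 9.44 and 9.21 in B10.D2 donor spleens (difference 0.10, SE 0.28, limma adjusted p = 0.909). Lcn2, the siderophore-binding lipocalin that keeps iron from bacteria, was at 9.41, 9.09, 9.94 and 10.26 in DBA donor spleens, against 10.00, 9.67, 9.38 and 9.30 in B10.D2 donor spleens (difference 0.09, SE 0.24, limma adjusted p = 0.908). In both genes DBA donor replicate 4 was the highest array and DBA donor replicate 2 the lowest. Ltf, the iron-binding lactoferrin, was at 10.10, 9.93, 10.73 and 11.07 in DBA donor spleens, against 11.06, 10.63, 10.26 and 10.22 in B10.D2 donor spleens. Its difference was -0.08 (SE 0.26, limma adjusted p = 0.918), and -0.14 (SE 0.20) on its second probe, whose means were 5.68 in DBA donor spleens, against 5.82 in B10.D2 donor spleens. The order of arrays was not the same on the second probe, where DBA donor replicate 1 and B10.D2 donor replicate 3 were the lowest of their groups.

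The matrix metalloproteinases differed in whether they were detected. The only probe of Mmp8, the neutrophil collagenase, was not detected on any of the 8 arrays (detection p 0.358 to 0.881), so no fold is given. Its raw intensities were 99.2 to 105.9 in DBA donor spleens, against 111.6 to 122.8 in B10.D2 donor spleens. The median raw intensity of all probes was also lower on DBA donor arrays, at 113.2 to 124.8, against 126.4 to 142.1 on B10.D2 donor arrays. Mmp9, the gelatinase that cleaves type IV collagen and is also made by macrophages, was at 6.66, 6.56, 6.75 and 7.05 in DBA donor spleens, against 7.27, 7.18, 6.82 and 7.75 in B10.D2 donor spleens. DBA donor replicate 4 reached above B10.D2 donor replicate 3, so the groups overlapped, but the other 3 DBA donor arrays lay below all B10.D2 donor arrays. The difference was -0.50 (SE 0.18, 95% confidence interval -0.90 to -0.10, limma unadjusted p = 0.0189, adjusted p = 0.255), the lowest of the set, and 0.564% of tested probes had a lower one. It was -0.34 without B10.D2 donor replicate 4, and between -0.65 and -0.44 without any one of the other arrays.

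B10.D2 donor replicate 4 set Mmp9 apart from the other late genes. It was the highest of the 8 arrays for Mmp9 but the lowest B10.D2 donor array for Ltf, Ngp, Camp and Lcn2 (for Ngp and Camp alone with median scaling). The same array held pancreatic transcripts. Cela1, a pancreatic elastase, stood at 10.85 there and between 8.30 and 8.94 on the other 7 arrays, and Cpa1, Cpb1, Cel and both Amy2a5 probes were detected on that array and on 0 others. Ctrb1, also on the pancreas list, was detected on that array and on DBA donor replicate 4. The part of these in the Mmp9 value was not tested.

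The early granule genes overlapped between donors as well. Mpo, the peroxidase that makes hypochlorous acid, was at 9.68, 9.32, 10.24 and 10.05 in DBA donor spleens, against 9.89, 10.28, 9.68 and 9.55 in B10.D2 donor spleens. The difference was -0.03 (SE 0.21, 95% confidence interval -0.49 to 0.44, limma adjusted p = 0.968), and 0.01 and 0.06 on its other tested probes, which kept the same order of DBA donor arrays. Elane, neutrophil elastase, was at 8.70, 8.21, 9.21 and 8.90 in DBA donor spleens, against 8.61, 9.08, 8.69 and 8.13 in B10.D2 donor spleens (difference 0.13, SE 0.23, 95% confidence interval -0.38 to 0.63, limma adjusted p = 0.845). For both genes DBA donor replicate 3 and B10.D2 donor replicate 2 were the highest of their groups, and DBA donor replicate 2 and B10.D2 donor replicate 4 the lowest.

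**Figure D1:**
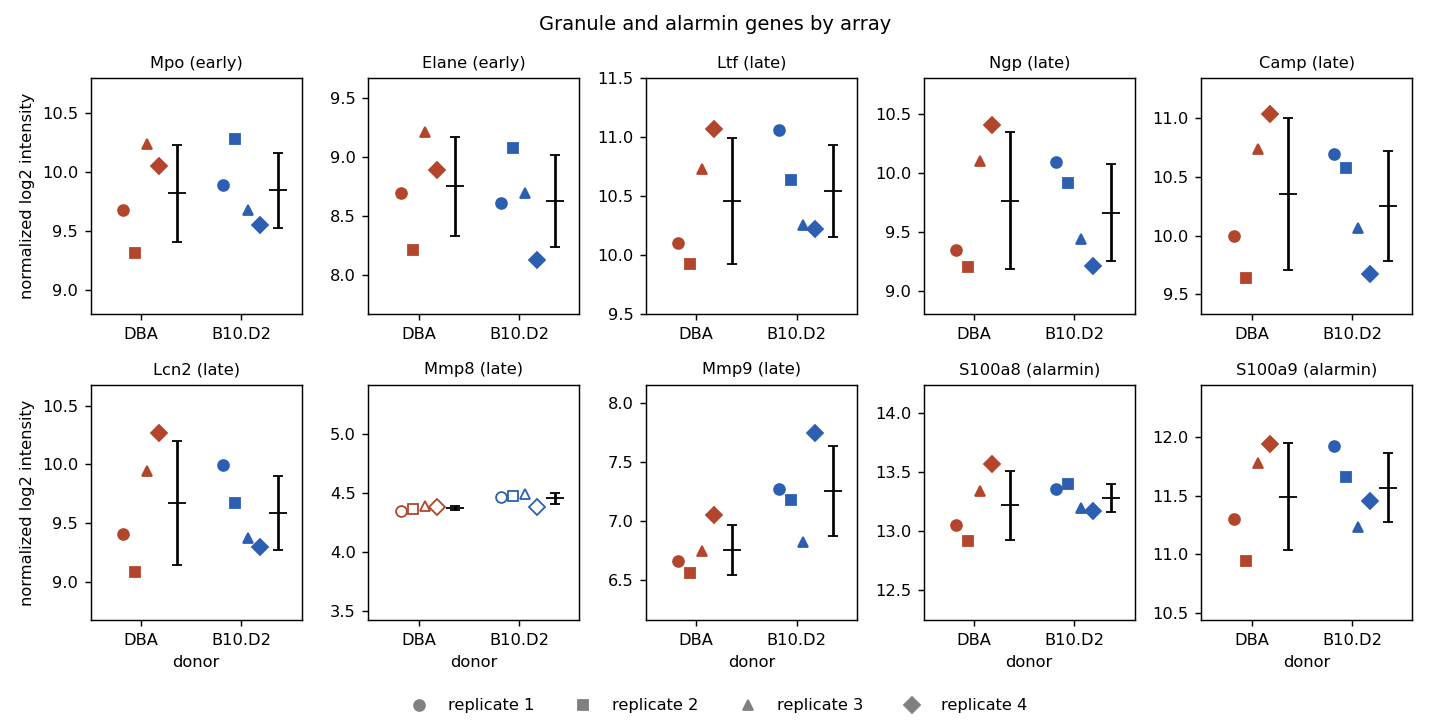
Normalized log2 intensity of the 10 genes on each array, DBA donor left and B10.D2 donor right, with 1 symbol per replicate and the mean and SD over 4 arrays as a black bar. Each panel spans 2 log2 units around its own centre; open symbols mark arrays on which the probe was not detected, which were all 8 for Mmp8. The groups overlapped in each of the other 9 panels.

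These genes differed widely between arrays of one donor. The SD pooled over both donors was 0.56 for Camp, 0.50 for Ngp, 0.47 for Ltf, 0.43 for Lcn2, 0.41 for Elane, 0.38 for S100a9, 0.37 for Mpo, 0.31 for Mmp9 and 0.22 for S100a8. The median over all tested probes was 0.17, and other lists on the same arrays had medians of 0.52 (erythroid), 0.44 (eosinophil) and 0.33 (further early granule genes), so a wide spread is not particular to the members. The SD of Camp exceeded that of 99.1% of tested probes and the SD of S100a8 that of 75.0%.

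The arrays kept much the same order from gene to gene. The orders given here are those of the brightest probe of each gene. Among DBA donor spleens, replicate 4 was highest, followed by 3, 1 and 2, for 7 of the 9 tested genes: all 5 late members and both alarmins. Mpo and Elane had replicate 3 above replicate 4 and the same order below. DBA donor replicate 2 was therefore the lowest of its group for 9 of 9 genes, and with median scaling the order of DBA donor arrays was the same for 9 of 9. This low is not particular to the members. The same array was also lowest of its group for the mean of the B cell, monocyte, mast cell and basophil, and progenitor lists. It was highest for the erythroid, proliferation, pancreas and granule receptor lists, and neither for the eosinophil, granulopoiesis factor and RNA handling lists. Among B10.D2 donor spleens the order was replicate 1, 2, 3 and 4 for 4 of the 9 genes (Ltf, Ngp, Camp and Lcn2), and replicate 4 was lowest for 7 of the 9, the exceptions being Mmp9 and S100a9. This order was less stable, since with median scaling replicate 4 was lowest for 3 genes (Elane, Ngp and Camp) and replicate 3 for the other 6. In bulk spleen RNA, fewer cells of a type and less RNA per cell cannot be told apart.

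**Figure D2:**
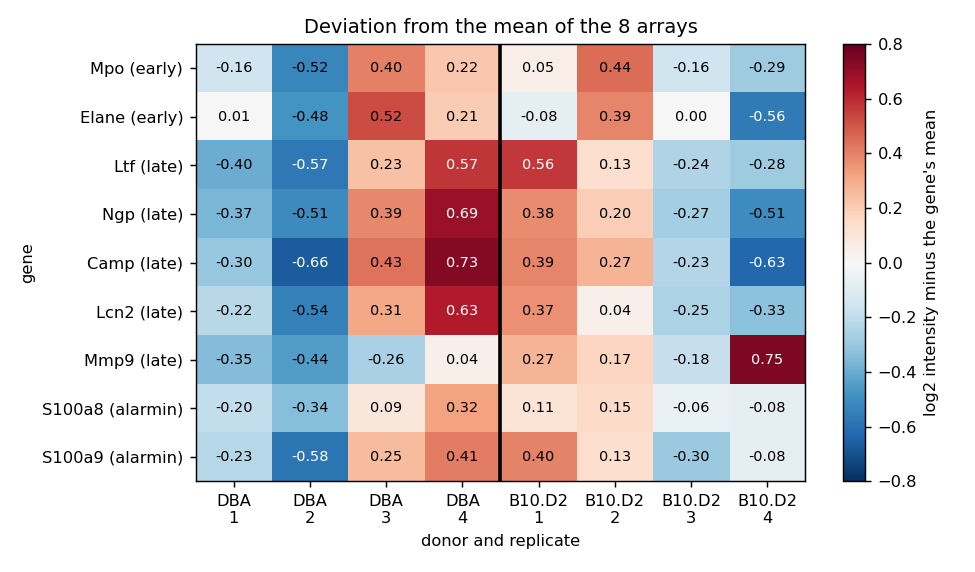
Deviation of each tested gene on each array from that gene's mean over the 8 arrays, in log2 units, with DBA donor arrays left of the line and B10.D2 donor arrays right of it. Late members other than Mmp9 share with the alarmins low values on DBA donor replicates 1 and 2 and high values on DBA donor replicate 4 and B10.D2 donor replicate 1; Mmp9 alone is high on B10.D2 donor replicate 4.

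Early and late members were set against each other on each array, after each gene was centred on its own mean. The early mean (Mpo and Elane) deviated by -0.08, -0.50, 0.46 and 0.21 in DBA donor spleens, against -0.01, 0.42, -0.08 and -0.42 in B10.D2 donor spleens. The late mean (Ltf, Ngp, Camp, Lcn2 and Mmp9) deviated by -0.33, -0.55, 0.22 and 0.53 in DBA donor spleens, against 0.39, 0.16, -0.24 and -0.20 in B10.D2 donor spleens. Both means were low on DBA donor replicate 2 and high on DBA donor replicate 3, and the widest gap was on B10.D2 donor replicate 1, where the late mean was high and the early mean near its centre. On DBA donor replicate 4 the late mean was also the higher of them.

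The early minus late value was 0.25, 0.05, 0.24 and -0.32 in DBA donor spleens, against -0.41, 0.25, 0.16 and -0.23 in B10.D2 donor spleens. Its mean was 0.05 ± 0.27 in DBA donor spleens, against -0.05 ± 0.31 in B10.D2 donor spleens (SD, n = 4 in both), a difference of 0.11 that was smaller than either SD. With Mmp9 left out of the late members, a choice made after its values were seen, the difference was -0.000925. The median difference between donors was 0.05 for the 2 early members and 0.09 for the 5 tested late members, beside -0.02 for all 9028 tested genes. Leaving out 1 array moved the early median between -0.10 and 0.22 and the late median between -0.13 and 0.28, and median scaling gave -0.16 and -0.11, so neither median has a settled sign. The alarmin mean stayed close to the late mean, with alarmin minus late between -0.17 and 0.11 in DBA donor spleens, against values between -0.14 and 0.12 in B10.D2 donor spleens.

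**Figure D3:**
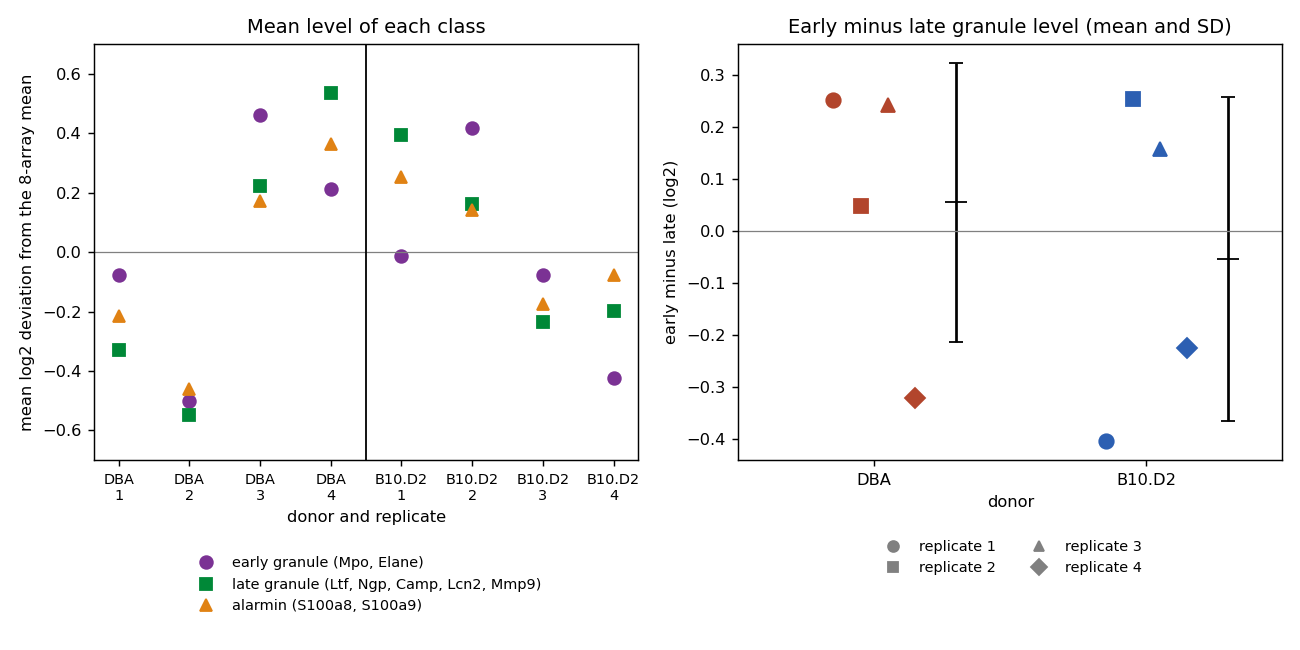
Left, mean log2 deviation of the early, late and alarmin members from their 8-array means on each array, DBA donor arrays left of the line. Right, early minus late by donor, with 1 symbol per replicate and the mean and SD over 4 arrays as a black bar; the donors cover nearly the same range, -0.32 to 0.25 for DBA donor spleens, against -0.41 to 0.25 for B10.D2 donor spleens.

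Other genes of the neutrophil programme were taken from 8 lists and, members left out, gave 60 tested genes. Of these 60, limma called 0 over all probes, and 4 higher and 4 lower stood at an unadjusted p under 0.05, a share close to the 14.5% of all tested probes. Their median difference was 0.02. The donor groups did not overlap for 6 of the 60, where they did not for 763 of all 9028 tested genes. Of 5 further early granule genes all 5 had positive differences, from 0.03 to 0.23, and 0 passed. With median scaling 1 was positive and 4 negative, and all 5 lay above the median of all tested probes, at -0.16. That shift of all probes affects every count of signs with median scaling given below. Ctsg, the azurophil protease cathepsin G, differed by 0.23 (SE 0.21, limma adjusted p = 0.665), but by 0.021 without DBA donor replicate 3, 0.38 without DBA donor replicate 2 and 0.014 with median scaling. Ctsc, the protease that activates the azurophil serine proteases, differed by 0.08 (limma adjusted p = 0.691). Of 11 further late granule genes 5 had positive and 6 negative differences, with a median of -0.10, and 0 passed. With median scaling 1 was positive and 10 negative, and 4 lay above the median of all tested probes. Among these 11 genes Anxa1, an annexin that limits neutrophil recruitment, differed by -0.26 (limma adjusted p = 0.486).

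Slpi, the secretory inhibitor of neutrophil elastase and itself a late granule protein, had the largest difference among the 60 genes. It was at 13.44, 13.32, 13.53 and 13.17 in DBA donor spleens, against 13.29, 12.54, 12.57 and 10.82 in B10.D2 donor spleens. The DBA donor arrays were close together, and B10.D2 donor replicate 4 lay far below the rest of its group. The difference was 1.06 (SE 0.41, limma adjusted p = 0.281), and 0.57 without B10.D2 donor replicate 4 (limma adjusted p = 0.166). Of the 9 tested inhibitors of granule proteases 6 had positive and 3 negative differences (5 and 4 with median scaling) and 0 passed. Timp2, a tissue inhibitor of metalloproteinases, stood on the lower side at -0.28 (SE 0.09, limma adjusted p = 0.219), with groups that did not overlap. It passed with median scaling, under which 625 of 12950 tested probes were called, 598 of them lower.

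Among 11 tested receptors and surface proteins of mature neutrophils 5 had positive and 6 negative differences, with a median of -0.03, and 0 passed. With median scaling 2 were positive and 9 negative, and Il1r2 passed, among 27 probes called higher over the whole array. Of the same list, Itgam, Cxcr1, C5ar1, Clec5a and Mxd1 were detected on too few arrays to be tested. Il1r2, the decoy receptor for interleukin-1, was at 5.99, 5.87, 6.01 and 5.75 in DBA donor spleens, against 5.56, 5.20, 5.05 and 5.32 in B10.D2 donor spleens. The groups did not overlap, and the difference was 0.62 (SE 0.12, limma unadjusted p = 0.000357, adjusted p = 0.110). Il1r2 was dim, and the size of its difference depended on how background was handled. It was 0.19 with no background correction, 0.36 with an offset of 50, 0.92 with an offset of 1 and 0.95 with the authors' processed values. Fcgr4, an Fc receptor for IgG shared by neutrophils and monocytes, differed by 0.27 (SE 0.10, limma adjusted p = 0.270). The receptor for granulocyte colony-stimulating factor, Csf3r, differed by -0.32 (limma adjusted p = 0.314) and the chemokine receptor Cxcr2 by -0.17 (limma adjusted p = 0.693), both named after their values were seen.

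Of 6 further tested alarmins 4 had positive and 2 negative differences (2 and 4 with median scaling) and 0 passed. Il33, a nuclear alarmin of stromal cells, was at 8.55, 8.54, 8.56 and 8.38 in DBA donor spleens, against 8.14, 8.0, 7.90 and 6.88 in B10.D2 donor spleens. Its groups did not overlap, with a difference of 0.78 (SE 0.23, limma adjusted p = 0.207) that was 0.50 without B10.D2 donor replicate 4 (limma adjusted p = 0.0862). Il1a, an alarmin form of interleukin-1, differed by 0.24 (limma adjusted p = 0.455).

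Tested genes that govern the making, holding or attraction of neutrophils gave 0 calls. Of 8 tested transcription factors of granulocyte development 6 had positive and 2 negative differences, between -0.15 and 0.16 (1 and 7 with median scaling). Cebpb, a factor of emergency granulopoiesis, differed by 0.08 (limma adjusted p = 0.732), and Irf8, which favours monocytes over granulocytes, by -0.13 (limma adjusted p = 0.724). Of 14 listed attractants, cytokines and adhesion genes 6 were tested, with 4 positive and 2 negative differences (3 and 3 with median scaling). Cxcl2, Cxcl3, Cxcl5, Csf3, Csf2, Il17a, Il6 and Sele were detected on too few arrays to be tested. Under median scaling Cxcl12 passed, among 598 probes called lower over the whole array. Cxcl12, the chemokine that retains neutrophils in marrow through Cxcr4, was at 11.55, 11.52, 11.51 and 11.63 in DBA donor spleens, against 11.78, 11.96, 11.93 and 11.94 in B10.D2 donor spleens. These groups did not overlap (difference -0.35, SE 0.08, limma unadjusted p = 0.00150, adjusted p = 0.137). With the probes of each gene averaged, Cxcl12 differed by -0.28 (limma adjusted p = 0.206). Cxcl1, a chemokine of neutrophil recruitment, differed by 0.20 (limma adjusted p = 0.483).

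Of 6 tested receptors for granule proteins and alarmins 2 had positive and 4 negative differences (1 and 5 with median scaling) and 0 passed. Ager, the receptor RAGE that binds S100 proteins, differed by -0.33 (SE 0.12, limma adjusted p = 0.254), with groups that did not overlap. Its difference ran from -0.11 with no background correction to -0.47 with the authors' processed values. Fpr2, a formyl peptide receptor that also binds the cathelicidin peptide, differed by -0.15 (limma adjusted p = 0.484).

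**Figure D4:**
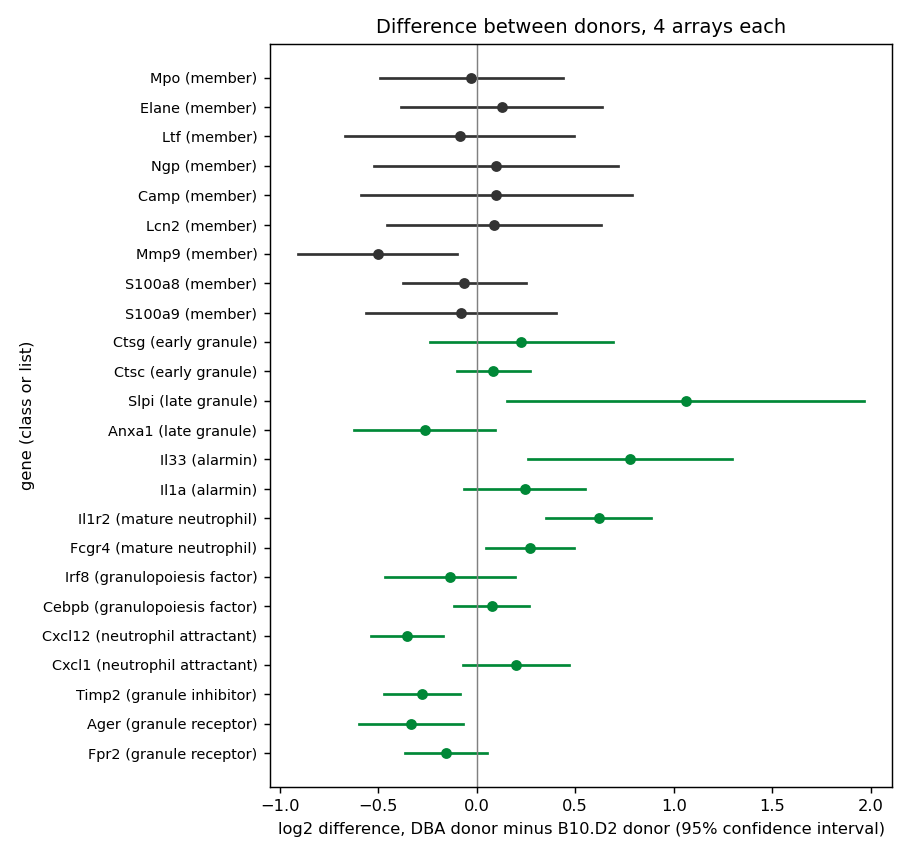
Log2 difference, DBA donor minus B10.D2 donor, with its 95% confidence interval from limma (4 arrays each), for the 9 tested members in black and for the 15 related genes in green. The intervals of 8 of the 9 members include 0 and that of Mmp9 does not; 0 of the 24 genes passed after adjustment over all tested probes.

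Over the 8 arrays, the tested genes whose pattern was most like the early mean, members left out and among 8905 compared, were Gp1bb (Pearson correlation 0.986), Prtn3 (0.977), F10 (0.957), Alox12 (0.953) and Vwf (0.952). Prtn3 encodes proteinase 3, an azurophil protease, while Gp1bb encodes a platelet glycoprotein, Alox12 the platelet lipoxygenase, Vwf von Willebrand factor and F10 coagulation factor X. Those most like the late mean were Lair1 (0.946), Glg1 (0.941), Nfatc3 (0.925), Rab22a (0.922) and Gipc1 (0.922). These 5 genes ranged by only 0.29 to 0.59 over the arrays. Lair1 was dim, with means of 4.93 in DBA donor spleens, against 4.90 in B10.D2 donor spleens. The late mean includes Mmp9, which correlated with the other late members at only 0.032 to 0.305. These correlations were the highest of many, come from arrays that share their normalization, and are descriptions without a test.

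Markers of other cells moved across the same arrays. The mean of 8 tested erythroid genes was highest in its group on DBA donor replicate 2 (11.56, against 10.63 to 11.08 on the others) and on B10.D2 donor replicate 4 (11.64, against 10.65 to 11.03), the arrays with the lowest early mean in their groups. The mean of 6 tested proliferation genes was also highest on those arrays, at 9.68 and 9.49. Hba-a1, an alpha globin gene in the erythroid list, was at 14.64 on all 8 arrays, with an SD of 0 in both groups. Quantile normalization gives the same value to a probe that holds the same rank on every array, so this is not a measured constancy. Hba-a1 adds a constant to each erythroid sum and narrows its relative range. The summed intensity of the erythroid genes ran from 47473.8 to 61729 in DBA donor spleens, against 49147.1 to 63778.8 in B10.D2 donor spleens, and that of 3 monocyte genes from 1874.7 to 2268.6 in DBA donor spleens, against 1975.1 to 2271 in B10.D2 donor spleens. Of the monocyte markers on the array, Ccr2 and Vcan were detected on 0 arrays. Csf3, the granulocyte colony-stimulating factor, was below the filter. It was detected by 1 of its probes on B10.D2 donor replicates 3 and 4 only, and by the other on 0 arrays. B10.D2 donor replicate 4 is the array that held pancreatic transcripts. Il17a, also below the filter, was detected on DBA donor replicate 2 only. Detection was not tested between donors, and the part of these markers in the granule values was not tested.

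Granule genes of other lineages were measured on the same arrays. All 8 tested mast cell and basophil genes had positive differences, with a median of 0.45, and 1 passed, the mast cell chymase Mcpt4. With median scaling 6 were positive and 2 passed, among 27 probes called higher over the whole array. Mcpt4 was at 6.83, 6.99, 6.59 and 6.47 in DBA donor spleens, against 5.88, 5.36, 5.08 and 5.47 in B10.D2 donor spleens. Its difference was 1.27 (SE 0.17, limma adjusted p = 0.0321). This call was lost without any one of DBA donor replicates 1 to 4 or B10.D2 donor replicates 2 and 3, with differences of 1.15 to 1.36 and adjusted p between 0.0815 and 0.138. Of 3 tested eosinophil genes 2 had positive and 1 a negative difference and 0 passed. Epx, the eosinophil peroxidase, differed by 0.56 (SE 0.25, limma adjusted p = 0.337) and Prg2, the major basic protein, by 0.29 (limma adjusted p = 0.672), while the eotaxin receptor Ccr3, named after its value was seen, differed by -0.11 (limma adjusted p = 0.802). Whether these differences are larger than those of the neutrophil granule genes was not tested.

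Across the series, 12601 to 13320 probes were detected per array, and median raw intensity ran from 113.2 to 124.8 on DBA donor arrays, against 126.4 to 142.1 on B10.D2 donor arrays, a gap that normalization removes. Over the whole array the test called 9 probes, of which 8 were on the higher side. The B cell receptor genes Cd79a and Cd79b, which spleen should hold, were at 11.12 and 12.67 in DBA donor spleens, against 11.49 and 12.86 in B10.D2 donor spleens. Their differences were -0.37 and -0.19 (limma adjusted p = 0.219 and 0.473). The labels and files used here name no slide or scan date.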

How the data were processed

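Spleen RNA of 8 samples was read on Illumina MouseRef-8 v2.0 BeadChips. Per the file headers, the deposited non-normalized table holds the mean bead intensity of each probe on a linear scale and a detection p-value per array. Intensities that the authors had processed were also deposited, with array medians of 13.9 to 14 and a lowest value of -16.5; their steps are not stated, and they were tried as an alternative. GenomeStudio appears in the submitters' processing notes. No genome build is given in the sources.

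Intensities were corrected by normexp (offset 16, background from the detection p-values), log2-transformed and quantile-normalized with limma 3.58.1 in R 4.3.3. Of 25697 probes, 23978 had 1 gene symbol, 0 several and 1719 none. The 12950 probes detected (p below 0.05) on 4 or more arrays were fitted by lmFit and eBayes and adjusted by Benjamini-Hochberg. A gene is represented by its brightest tested probe. The number of arrays limits the precision. Tested on simulated data of this comparison (12950 probes, 50 changed at each size), the fit recovered 68% of probes changed 1.5-fold and 88% of those changed 2-fold. The changed probes were drawn at random from all tested probes, whose median SD was 0.17, against 0.41 for the 9 tested members. Noise was simulated independently for each probe. These shares therefore do not apply to the members, and recovery at their SD was not tested. Members and the 17 gene lists were chosen with earlier results of these data known. Named were the members, the genes of each list that passed or else 2 with the smallest p, and the 5 genes most like the early and the late mean. For the lists of other cells only those that bear on a result are named. Figures were drawn with matplotlib 3.10.9.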

Additional observations from a re-analysis of the deposited data

Results flagged for a closer look

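Among the members and the named genes, 108 groups of 4 arrays were screened for an array that lies apart, and 4 were found, where chance gives about 5.4. No member was among these 4. Each gap is divided by the range of all 4 arrays. For Il33, DBA donor replicate 4 was at 8.38 and the rest of its group at 8.54 to 8.56 (0.889). For Cxcl12, B10.D2 donor replicate 1 was at 11.78 and the rest at 11.93 to 11.96 (0.85). For Slc4a1, the erythrocyte anion exchanger, the same array was at 13.76 and the rest at 14.11 to 14.15 (0.882). For Cela1, B10.D2 donor replicate 4 was at 10.85 and the rest at 8.30 to 8.65 (0.864).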

How the results depend on the processing

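The count of member probes past the limma test stayed 0 in all 20 alternatives, with 1 member probe at an unadjusted p under 0.05 in each but the one without DBA donor replicate 2, which had 0. The 9 calls over all probes became 4 with an offset of 1, 5 with the authors' processed values, 0 without the filter on dim probes (2758 at an unadjusted p under 0.05), 45 with array weights (25 higher, 20 lower), 35 at an adjusted p under 0.1 and 625 with median scaling (27 higher, 598 lower), which moved the median difference of all tested probes to -0.16. With 1 array left out they ran from 0 to 11: 0 without DBA donor replicate 3 or 4 or B10.D2 donor replicate 2 (unadjusted, 1233, 1997 and 1272), 2 with either DBA donor replicate 1 or B10.D2 donor replicate 3 dropped, and 4 with DBA donor replicate 2 dropped.

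The sign of most members depended on the processing, and the cause was not tested. With median scaling Elane was -0.10, Ngp -0.10, Camp -0.090, Lcn2 -0.11, Ctsc -0.082 and Cebpb -0.13, all nearer to 0 than the -0.16 of all tested probes. Mpo was 0.014 with its probes averaged and S100a9 0.015 with array weights. With 1 array left out Mpo ran from -0.17 to 0.14, Elane from -0.041 to 0.31, Ltf from -0.29 to 0.091, Ngp from -0.12 to 0.29, Camp from -0.13 to 0.34, Lcn2 from -0.11 to 0.28, S100a8 from -0.18 to 0.038 and S100a9 from -0.23 to 0.10. Mmp9 kept its sign throughout, from -0.70 to -0.27, with a lowest adjusted p of 0.0593. The early minus late difference ran from -0.01 to 0.23 with 1 array left out. With median scaling Il1r2 (0.53), Cxcl12 (-0.47) and Timp2 (-0.46) passed, as did Il1r2 with array weights (0.68). Mcpt4 did not pass with no background correction (0.48), an offset of 1 (1.69), the authors' values (1.72) or no filter (1.27).

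Nothing in the labels pairs the samples by replicate number. Deviations of same-numbered arrays correlated at 0.34, -0.35, 0.05 and 0.04, and those of arrays with different numbers at -0.53 to 0.56. These correlations cannot tell whether same-numbered arrays shared handling. With the replicate block 7 probes passed and 0 of the members, Mmp9 at -0.50 (limma unadjusted p = 0.00444, adjusted p = 0.258). Without the block the limma unadjusted p of Mmp9 was 0.0189.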
